A study of Mus musculus with 42 samples.

Results

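Thymic epithelial cells fall into a cortical kind (cTEC), which positively selects developing T cells, and a medullary kind (mTEC), which displays tissue-restricted self-antigens to them. The libraries described here come from mice labelled KO, and set 7 libraries of MHCII-high mTEC (sorted as Epcam+, CD45-, UEA+, Ly51 low and MHCII high) against 7 libraries of cTEC (Epcam+, CD45-, UEA-, Ly51+). They were chosen by the sorted cell type and the genotype in the labels, and are 14 of the 42 libraries in the series, which also holds MHCII-low mTEC and the genotypes Control and Ski flox Control. The study is about deletion of the transcriptional cofactor SKI in thymic epithelial cells, so all 14 libraries carry the same labelled genotype and the comparison is between cell types within it. Neither the driver of the deletion nor the age, sex or number of mice is stated in the labels. Which libraries share a mouse is also unstated, and the p-values below therefore measure only the spread from library to library, which may be technical. UEA is a lectin that marks medullary epithelium, Ly51 is the product of Enpep, and MHCII is the sort marker of mature mTEC, so genes of the sort are no finding between the groups.

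In the cortex, cTEC attract and nurture T-cell precursors with the chemokines CXCL12 and CCL25 and the Notch ligand DLL4, and cut the peptides for positive selection with the proteasome subunit encoded by Psmb11 and the proteases encoded by Ctsl and Prss16. Most of this programme depends on the transcription factor FOXN1. In the medulla, mature mTEC with high MHCII express AIRE and FEZF2, which drive promiscuous expression of genes otherwise confined to peripheral tissues. Single mTEC each express a small and changing share of those genes, and some mTEC take on programmes of skin, gut, tuft, microfold or muscle cells. SKI is a corepressor of SMAD proteins, the mediators of TGF-beta signalling.

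For each library 200 cells were sorted, full-length cDNA was amplified by PCR and reads were counted per gene. The amplification does not mark strand or molecules, so overlapping genes on opposite strands cannot be told apart, and genes with near-identical copies (Dsg1a, Sprr1a, Reg3g, Ctla2a and Gbp2 among those named) are uncertain. The 14 libraries held 3243909 to 6409278 counts, and levels are given as counts divided by the library total and scaled to CPM, the usual depth-normalized unit. Ski itself was counted at 0, 57, 0, 65, 36, 3 and 33 reads in the MHCII-high mTEC KO libraries, against 194, 0, 2, 220, 40, 30 and 145 in the cTEC KO libraries. Its level averaged 6.16 ± 6.48 CPM in MHCII-high mTEC and 16.4 ± 16.4 CPM in cTEC (SD, n = 7 each), which did not differ beyond the spread (difference of −1.06 in log2(CPM + 1), 2-sided exact permutation p = 0.317, adjusted over 2 tests p = 0.317). In Control libraries Ski averaged 13.4 ± 6.57 CPM in 4 MHCII-high mTEC libraries and 16.8 ± 8.97 CPM in 5 cTEC libraries (SD). Reads were counted over the whole gene, and the deleted part is not given in the sources used here, so these counts are no check of a deletion of some exons. Library numbers are consecutive, and each run of 3 holds 1 library of each cell type. The first 7 such trios (4 KO libraries of each cell type) and the last 7 (3 KO libraries of each) are called early and late below, which is an order of numbers and not a stated batch.

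The sort labels were checked first. Epcam ran between 517 and 1151 CPM in the MHCII-high mTEC libraries and between 54.9 and 399 CPM in the cTEC libraries, with no overlap. Ptprc, which encodes the CD45 that the sort excluded, was at 0, 0, 0 and 9.67 CPM in the 4 early MHCII-high mTEC libraries and at 171 to 324 CPM in the 3 late ones, against 150.2 to 709.7 CPM in the cTEC libraries. Enpep overlapped throughout, at 0 to 557 CPM in MHCII-high mTEC and 0 to 500.5 CPM in cTEC. Markers of other cells were found in both groups. The 15 thymocyte markers summed to 16.8 to 1472 CPM in MHCII-high mTEC and 775 to 4772 CPM in cTEC, and all 15 had a lower fitted level in MHCII-high mTEC, though 0 of 15 passed the threshold (edgeR, adjusted p). Of all tested genes, 1.82% passed it as lower. One of the defining thymocyte markers, Cd3e, was at 0 to 37.0 CPM in MHCII-high mTEC and 3.05 to 239 CPM in cTEC. The myeloid and dendritic list summed to 1575 to 3311 CPM in MHCII-high mTEC and 254 to 2683 CPM in cTEC. Much of the sum in MHCII-high mTEC was Lyz2, a gene of myeloid cells and some epithelia. Of the 15 members, 8 had a positive difference, while Flt3, for 1, averaged 91.9 CPM in MHCII-high mTEC and 223 CPM in cTEC. The B-lineage list summed to 123 to 491 CPM in MHCII-high mTEC and 111 to 15146 CPM in cTEC. The mesenchymal list summed to 47.0 to 238 CPM in MHCII-high mTEC and 21.8 to 6493 CPM in cTEC, the top value in cTEC replicate 1. Ccr7, a homing receptor of T cells and dendritic cells, stood at 31.9 to 2202 CPM in MHCII-high mTEC and 195 to 4567 CPM in cTEC. The part these cells have in the differences below was not tested. In a bulk library, fewer cells of a kind and less RNA per cell cannot be told apart.

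A library labelled cTEC was low for 3 cortical genes. The library labelled cTEC replicate 5 held Psmb11 at 6.51 CPM, Prss16 at 3.90 CPM and Ctsl at 90.6 CPM, while the other 6 cTEC libraries lay at 243 to 1003, 219 to 1946 and 934 to 6549.6 CPM. The library labelled cTEC replicate 6 was the next lowest for all 3 and held the highest B-lineage sum (15146 CPM). Other genes of replicate 5 went with its label, with Cxcl12 at 44.2 CPM (up to 27.8 CPM in MHCII-high mTEC) and Fezf2 at 5.47 CPM. Among cTEC libraries it had the lowest keratin sum (599 CPM). It also had the highest Ptprc (709.7 CPM), summed MHCII pathway (42513 CPM) and Aire (119.7 CPM). The cause was not tested. Results are given with all 7 cTEC libraries. Without cTEC replicates 5 and 6, 17 of the 88 named genes past the threshold missed it. Their adjusted p without these libraries is given beside each below.

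The 4 genes taken as markers separated the groups as follows. Aire (chromosome 10, 78030022 to 78043610, GRCm38) had a lowest, median and highest level of 279, 544 and 1411 CPM in MHCII-high mTEC, against 0, 41.2 and 119.7 CPM in cTEC. Every MHCII-high mTEC library lay above every cTEC library, and the fitted difference was 4.25 ± 1.14 on the log2 scale (SE, edgeR adjusted p = 0.0164). Fezf2 (chromosome 14, 12342094 to 12348189), the second regulator of self-antigens, stood at 335, 489 and 629 CPM in MHCII-high mTEC and at 0, 10.3 and 91.4 CPM in cTEC, again with no overlap (log2 difference 4.13 ± 1.09, edgeR adjusted p = 0.0155). Both medullary regulators were thus higher in all 7 libraries. In the third sorted cell type, MHCII-low mTEC of KO, Aire averaged 145 CPM and Fezf2 168 CPM, so both were at their highest mean in MHCII-high mTEC of KO.

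Cxcl12 (chromosome 6, 117168535 to 117181367), the chemokine that retains T-cell precursors, had 0, 6.28 and 27.8 CPM in MHCII-high mTEC as lowest, median and highest, against 44.2, 547 and 1336 CPM in cTEC. It did not overlap between the groups and had the smallest p of all genes that were lower (log2 difference −5.95 ± 0.95, edgeR adjusted p = 2.27e-04). Ctsl (chromosome 13, 64359337 to 64370890), which encodes cathepsin L, stood at 42.8, 141 and 456 CPM in MHCII-high mTEC and at 90.6, 3303 and 6549.6 CPM in cTEC. It overlapped only through the library labelled cTEC replicate 5, and its log2 difference was −3.99 ± 0.70 (edgeR adjusted p = 6.18e-04). Without cTEC replicates 5 and 6 the adjusted p was 1.83e-04 for Cxcl12, 1.83e-04 for Ctsl, 0.0273 for Aire and 0.0551 for Fezf2, so that Fezf2 then missed the threshold. Among early libraries alone the edgeR adjusted p was 0.118 for Aire, 0.148 for Fezf2, 0.0210 for Cxcl12 and 0.0342 for Ctsl. Among late libraries alone it was 0.0170 for Aire, 0.0299 for Fezf2, 0.0168 for Cxcl12 and 0.0656 for Ctsl.

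**Figure D1:**
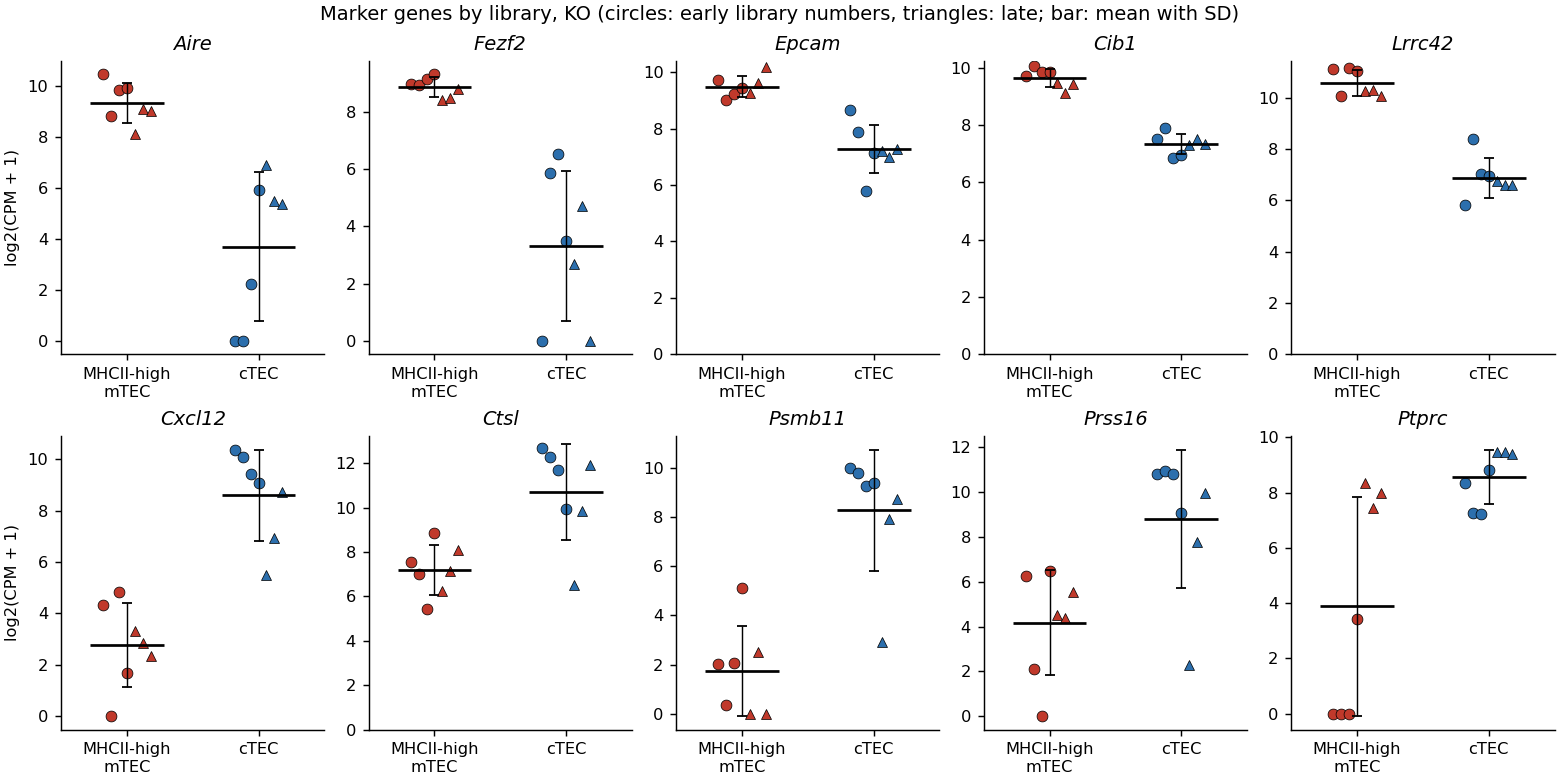
Level of 10 genes in each KO library, as log2(CPM + 1) on the vertical axis, for MHCII-high mTEC (red, left) and cTEC (blue, right), with circles for early and triangles for late libraries and a bar for the mean with its SD (n = 7 each). Aire, Fezf2, Epcam, Cib1 and Lrrc42 lie higher in all 7 MHCII-high mTEC libraries, and the triangle far below the other cTEC points for Psmb11 (6.51 CPM) and Prss16 (3.90 CPM) is cTEC replicate 5.

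Promoter sequences are shown for 3 of the genes that set the groups apart, 2 lower and 1 higher, because FOXN1 is known to bind a core motif of the letters GACGC. The 250 bases before the RefSeq start of each gene are printed 5′ to 3′ on the gene's strand (GRCm38.p6), with GACGC, or GCGTC where the motif lies on the other strand, in capitals. They lie at chr14:54625060-54625309 on the plus strand, within the wider GENCODE span of Psmb11, at chr6:117168285-117168534 on the plus strand, and at chr10:78043611-78043860 on the minus strand.
Psmb11: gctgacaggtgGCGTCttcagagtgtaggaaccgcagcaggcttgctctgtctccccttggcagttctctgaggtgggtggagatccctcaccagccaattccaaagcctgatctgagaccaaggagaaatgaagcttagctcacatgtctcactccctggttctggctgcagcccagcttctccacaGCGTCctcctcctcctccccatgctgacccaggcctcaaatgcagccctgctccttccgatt
Cxcl12: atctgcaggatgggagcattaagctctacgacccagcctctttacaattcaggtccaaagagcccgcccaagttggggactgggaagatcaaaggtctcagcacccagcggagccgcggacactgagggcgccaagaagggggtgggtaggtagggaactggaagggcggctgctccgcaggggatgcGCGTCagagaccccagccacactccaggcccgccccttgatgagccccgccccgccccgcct
Aire: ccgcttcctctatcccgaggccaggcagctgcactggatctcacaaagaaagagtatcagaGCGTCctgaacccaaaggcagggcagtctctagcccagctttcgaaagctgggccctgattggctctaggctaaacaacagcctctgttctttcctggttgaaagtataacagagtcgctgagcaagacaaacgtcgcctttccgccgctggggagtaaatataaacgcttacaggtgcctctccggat
The Psmb11 window held 2 matches, whose first bases lie 239 and 62 bases before the start, the Cxcl12 window 1 match at 62 bases and the Aire window 1 match at 189 bases. Over the 32851 RefSeq windows of this length, 22.6% held at least 1 match on either strand, and 30.7% of the windows of tested genes did. The share was 19.8% among genes higher in MHCII-high mTEC and 32.5% among genes lower in it. A match of 5 letters is a description of the window and not a binding site.

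Across the table, 23040 genes were tested with edgeR's quasi-likelihood test in a fit of the 40 usable libraries of the series, and 3385 passed an adjusted p of 0.05, which is 14.7% of those tested. Of these, 2965 (12.9% of tested) were higher in MHCII-high mTEC and 420 (1.82%) were lower, so 87.6% of the calls were on the medullary side. With the number of detected genes as a covariate the split was 2160 higher and 1049 lower (67.3% higher). The median log2 difference of all tested genes was 0.28. In a fit of the 14 libraries alone, 390 genes were higher and 52 lower (3.73% of those tested there, 3.29% higher and 0.438% lower), and 437 of those 442 calls (98.9%) were also calls of the larger fit, of which they were 12.9%. At the genes of the larger fit, the 14 libraries alone gave 961 higher and 63 lower. Without cTEC replicates 5 and 6 the counts were 1199 and 196, among early libraries 163 (0.812%) and 43 (0.214%), 1.03% in all, and among late libraries 491 (2.43%) and 66 (0.326%), 2.76% in all. Leaving out one library at a time moved the higher count most when cTEC replicate 4 was left out (1719 higher and 241 lower). It was 1908 without cTEC replicate 3, 1863 without replicate 6 and 1884 without replicate 7. The lower count was 272 without cTEC replicate 3 and 260 without replicate 7, and 248, 277 and 263 without MHCII-high mTEC replicates 1, 3 and 4. The count of calls therefore depends on which libraries enter the fit, and the named genes below are read with that in mind.

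**Figure D2:**
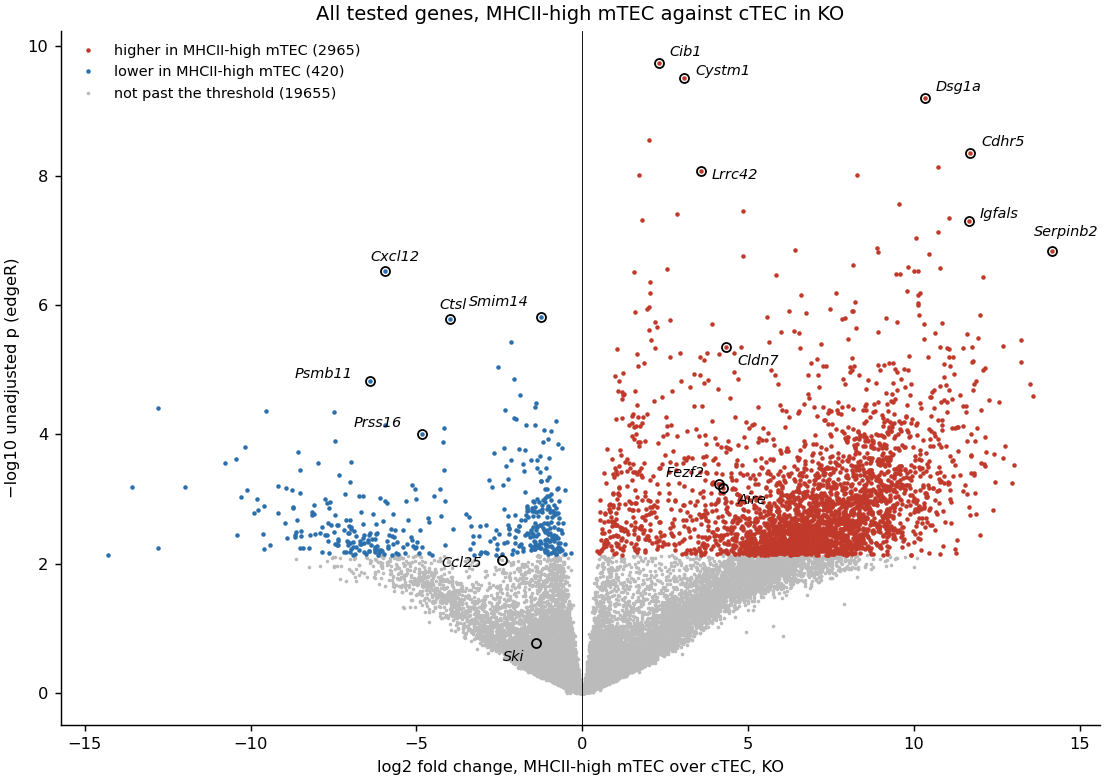
Each of the 23040 tested genes, with the log2 fold change of MHCII-high mTEC over cTEC in KO on the horizontal axis and −log10 of the unadjusted edgeR p on the vertical axis. Red points are the 2965 genes higher in MHCII-high mTEC, blue points the 420 lower and grey points those not past the threshold, and circled genes are named in the text.

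The larger group on the medullary side was one of genes seen in MHCII-high mTEC and in no cTEC library of KO. Of the 2965 higher genes, 1916 (64.6%) had no count in any cTEC KO library, against 123 of the 420 lower genes (29.3%) with none in any MHCII-high mTEC KO library. The share of all tested genes without a count in either group was not taken, so these shares describe the calls alone. The 2965 higher genes were also scattered among the MHCII-high mTEC libraries: 796 had a count in all 7 of them, 915 in 3 or fewer and 92 in only 1. For 1453 a single library held over 50% of the summed CPM. Genes with a level in most libraries were fewer, with 985 higher and 263 lower genes at a median of 10 CPM or more in the group where they were higher. Every MHCII-high mTEC library lay above every cTEC library for 566 genes (2.46% of tested) and below it for 74 (0.321%). The number of genes with a count averaged 16737 ± 3487 per MHCII-high mTEC library and 13546 ± 1782 per cTEC library (SD, n = 7 each), a difference of 3192 that missed the threshold (2-sided exact permutation p = 0.0542, adjusted over 2 tests p = 0.108). With each library thinned to 3000000 counts the difference was 3130 genes (exact permutation p = 0.0425). It was 2153 among early libraries (exact permutation p = 0.257) and 4576 among late ones (exact permutation p = 0.100, the smallest that 3 against 3 allows). With the trio as a replicate block, a pairing that no label states, the exact permutation p was 0.0156, the smallest possible there.

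**Figure D3:**
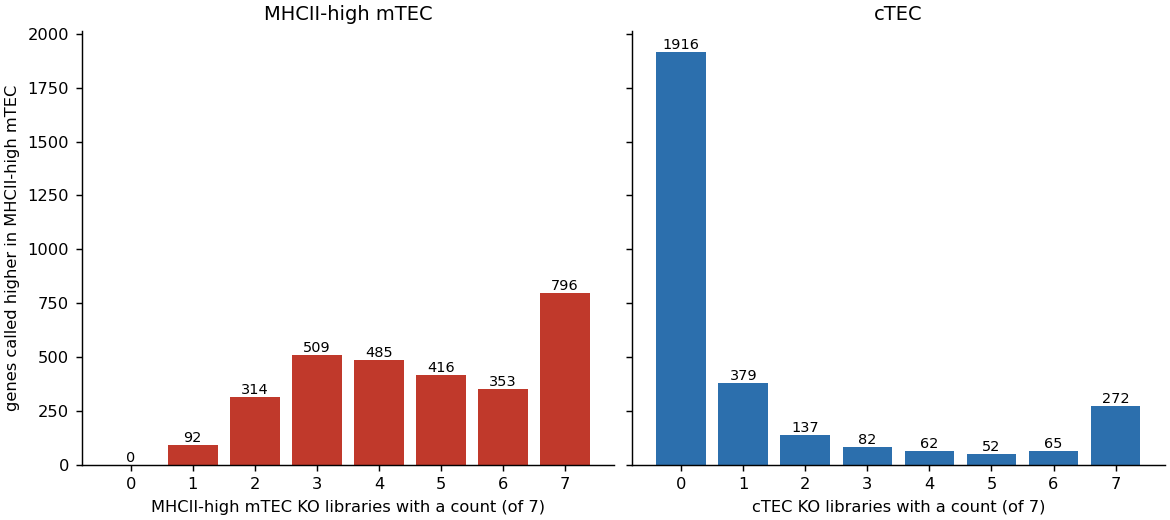
Number of genes higher in MHCII-high mTEC (vertical axis, 2965 in all) by the number of KO libraries in which they had a count (horizontal axis), for MHCII-high mTEC libraries on the left and cTEC libraries on the right. In cTEC 1916 of the genes had a count in 0 libraries, and in MHCII-high mTEC 796 had a count in all 7.

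Of the 10 higher genes with the smallest p, 5 had reads in every library of both groups and 5 were absent from most cTEC libraries. Cib1, which encodes a calcium- and integrin-binding protein, had 553, 848 and 1075 CPM in MHCII-high mTEC and 114, 162 and 236 CPM in cTEC as lowest, median and highest (log2 difference 2.30 ± 0.26, edgeR adjusted p = 3.57e-06). Lrrc42, a leucine-rich repeat gene, stood at 1073, 1269 and 2275 CPM in MHCII-high mTEC and at 55.5, 107 and 337 CPM in cTEC (3.57 ± 0.48, edgeR adjusted p = 2.49e-05). Neither overlapped between the groups. The other genes with reads in every library were Cystm1 (log2 difference 3.08), Nsmce1, a subunit of the SMC5/6 complex (2.02), and Ndufc2, a subunit of respiratory complex I (1.70). Dsg1a, a desmosomal cadherin of skin, had 26.1 to 113 CPM in MHCII-high mTEC and a single read over all cTEC libraries, a ratio of 2551 with a 95% interval from counting of 457 to 100784. Olfm4, a gene of intestinal stem cells, had 37.1 to 285 CPM in MHCII-high mTEC and 2 reads in cTEC, a ratio of 2467 (682 to 20375). Cdhr5, a cadherin of the intestinal brush border, had 18.1 to 248 CPM in MHCII-high mTEC and no read in cTEC, at least 974-fold higher against a floor of 3 counts over the cTEC group. The remaining 2 were Cadps2 and Gucy1b2. All 10 separated the groups in every library and passed in the 14 libraries alone, among early libraries, among late libraries and without cTEC replicates 5 and 6. The 10 were picked by p from these same libraries, so this is no independent check.

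The 10 higher genes with the largest fold all had no read in any cTEC KO library, and their lower bounds ran from 1619.5-fold to 5433-fold. Serpinb2, a protease inhibitor of stratified epithelium and activated macrophages, had 69.2, 605 and 977 CPM in MHCII-high mTEC as lowest, median and highest. Dppa3, a gene of germ cells and early embryos, had 52.5, 258 and 660.3 CPM, at least 3612-fold above the cTEC floor. Tac2, which encodes a tachykinin neuropeptide, had 41.0, 178 and 504 CPM, at least 2784-fold above it. Csn1s2a, a milk casein, had 14.3, 77.4 and 477 CPM. Crabp1, a retinoic acid binding protein, had a median of 216 CPM and a highest level of 337 CPM. All of these were at 0 in each cTEC library, so these 5 separate the groups in every library. Bpifa1, Cytl1, Klk4, Nts and Reg1 made up the rest, and 3 of the 10 were at 0 in at least 1 MHCII-high mTEC library. Nts, the neurotensin gene, was one of these, at 0 to 949 CPM.

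The regulators of promiscuous expression did not move as a group. Of 17 tested, 4 were higher and 1 lower, against 12.9% and 1.82% of all tested genes. Their median log2 difference was −0.17, against 0.28 for all genes. Besides Aire and Fezf2, the deacetylase gene Sirt1, whose product acts on AIRE, had 177, 201 and 277 CPM in MHCII-high mTEC and 0, 26.4 and 90.0 CPM in cTEC (log2 difference 2.70 ± 0.82, edgeR adjusted p = 0.0292). It lost the call without cTEC replicate 4 (0.0528) or 7 (0.0514). Ets1 was the lower one, at 0 to 48.7 CPM in MHCII-high mTEC and 74.4 to 179 CPM in cTEC (−2.56 ± 0.87, edgeR adjusted p = 0.0448), and missed the threshold when any of 11 of the 14 libraries was left out, up to 0.0743, and without cTEC replicates 5 and 6 (0.0692). Among members that did not pass, the topoisomerase gene Top1, a known partner of AIRE, averaged 106 CPM in MHCII-high mTEC and 137 CPM in cTEC.

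Self-antigen genes were on the medullary side throughout. Of all tested genes, 12.9% were higher and 1.82% lower, or 3.29% and 0.438% in the 14 libraries alone. Of 12 genes known to depend on AIRE, 8 were higher and 0 lower, and all 12 had a positive difference (median 5.52, or 5.33 with genes absent from cTEC at their lower bound). Of the 12, 5 had no read in any library of a group, so their sign was fixed by that absence. Tff3, a trefoil peptide of gut mucus, had 23.6, 75.4 and 443 CPM in MHCII-high mTEC and 0, 0 and 6.09 CPM in cTEC (log2 difference 6.24 ± 1.59, edgeR adjusted p = 0.0133). Fabp2, the intestinal fatty acid binding protein, ran from 0 to 176 CPM in MHCII-high mTEC and Sst, somatostatin, from 0 to 381 CPM, with no read in cTEC (at least 483-fold and 878-fold higher). Unlike Tff3, both were at 0 in at least 1 MHCII-high mTEC library. Ins2, insulin, averaged 11.7 CPM in MHCII-high mTEC and 3.55 CPM in cTEC and did not pass (edgeR adjusted p = 0.539). Of 8 genes known to depend on FEZF2, 3 were higher (Apob, Ttr and Itih3) and 0 lower, with a median of 2.87. Apob, the apolipoprotein B gene, was at 0 to 131 CPM in MHCII-high mTEC, with its top value in replicate 2, without which it missed the threshold (edgeR adjusted p = 0.0511). Without cTEC replicates 5 and 6 the adjusted p was 0.0575 for Apob and 0.0674 for Itih3, so 1 of the 8 then passed. In the 14 libraries alone, 2 of the AIRE list and 0 of the FEZF2 list passed, of 6 and 5 tested there.

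Genes of other tissues were likewise higher. The shares of all tested genes were 12.9% higher and 1.82% lower, or 3.29% and 0.438% in the 14 libraries alone. Of 20 cornified envelope and keratinocyte genes, 13 were higher and 0 lower, and all 20 were positive (median 7.39, or 6.20 with absent genes at their bound). For 10 of the 20 the sign was fixed, since they had no read in any library of a group. Sprr1a, a cornified envelope protein, had 70.1, 372 and 734 CPM in MHCII-high mTEC and 0, 0 and 42.5 CPM in cTEC (log2 difference 5.97 ± 1.42, edgeR adjusted p = 0.00840). Spink5, a protease inhibitor of skin, had 15.3 to 261 CPM in MHCII-high mTEC and none in cTEC, at least 1094-fold higher. Ivl, involucrin, had no read in 3 MHCII-high mTEC libraries and at most 18.9 CPM in the others, with an edgeR adjusted p of 0.0226, or 0.0588 without cTEC replicates 5 and 6. Cdsn, also among the 13, had 265 CPM in MHCII-high mTEC replicate 3 and at most 3.75 CPM in the others. Of 19 enterocyte and hepatocyte genes, 10 were higher and 0 lower, all 19 positive (median 4.76, 4.48 at bounds). Again 7 of the 19 had no read in any library of a group, which fixed their sign. The summed level of the list did not overlap, at 3129 to 6071 CPM in MHCII-high mTEC and 1.01 to 2122 CPM in cTEC. Reg3g, an antimicrobial lectin of gut, was the most abundant of the named ones at 1232, 1746 and 3827 CPM in MHCII-high mTEC and 0, 3.97 and 294 CPM in cTEC (5.43 ± 1.37, edgeR adjusted p = 0.0117). Hnf4g, a transcription factor of enterocytes, had 3.50 to 56.7 CPM and Apoa4, an apolipoprotein, 15.3 to 111 CPM in MHCII-high mTEC, with none in cTEC (at least 327-fold and 437-fold higher). Some calls rested on few libraries. Of the 10, Cyp3a11 was at 0 in 6 of 7 MHCII-high mTEC libraries and Alb in 5. In the 14 libraries alone, 7 of 14 tested genes of this list and 2 of 9 of the cornified list passed.

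Thymic tuft cells are chemosensory mTEC, and microfold-like mTEC resemble the antigen-sampling cells of gut. Counts of these lists are read against 12.9% of all tested genes higher and 1.82% lower, or 3.29% and 0.438% in the 14 libraries alone. Of 18 tuft genes, 5 were higher and 0 lower (median 2.56). Without cTEC replicate 5, the library low for Psmb11, Prss16 and Ctsl, 11 passed, and without replicates 5 and 6 together 7 did. Gnat3, a taste-signalling G protein, had 0, 128 and 441 CPM in MHCII-high mTEC and 0, 0 and 18.0 CPM in cTEC (log2 difference 4.81 ± 1.48, edgeR adjusted p = 0.0307), and lost the call without cTEC replicate 3, 4 or 7 or without MHCII-high mTEC replicate 7, with adjusted p up to 0.0570. Pou2f3, the master regulator of tuft cells, had 0, 32.2 and 56.5 CPM in MHCII-high mTEC and 0, 0 and 6.25 CPM in cTEC (4.97 ± 1.38, edgeR adjusted p = 0.0191). Gnat3 averaged 144 CPM in MHCII-high mTEC and 592 CPM in MHCII-low mTEC of KO, and Pou2f3 30.2 CPM in MHCII-high mTEC and 92.2 CPM in MHCII-low mTEC. Of 10 microfold genes, 5 were higher and 0 lower (median 1.75). Spib, an ETS factor of microfold cells that is also expressed by B and dendritic cells, had 90.3, 155 and 323 CPM in MHCII-high mTEC and 26.0, 52.3 and 116 CPM in cTEC (1.83 ± 0.40, edgeR adjusted p = 0.00469). Sox8 was absent from cTEC and reached 81.1 CPM in MHCII-high mTEC. None of the tuft list and 2 of 9 tested genes of the microfold list, Spib among them with an adjusted p of 0.0104, passed in the 14 libraries alone. Of 12 muscle genes 6 were higher and 0 lower (median 5.37, 5.24 at bounds), but 5 had a negative difference, and 0 of the 3 tested in the 14 libraries alone passed. The summed muscle list overlapped, at 116 to 393 CPM in MHCII-high mTEC and 13.2 to 1683 CPM in cTEC, the top value in cTEC replicate 3. Actc1, a sarcomeric actin, averaged 57.3 CPM in MHCII-high mTEC and 171 CPM in cTEC (log2 difference −1.57, edgeR adjusted p = 0.660). Its level in cTEC replicate 3 was 1196 CPM, and without that library it was higher in MHCII-high mTEC (log2 difference 11.13, edgeR adjusted p = 0.0271). Of 14 ciliated and neuroendocrine genes, 4 were higher and 0 lower (median 3.27). Myog, the myogenic factor, had 0 to 50.3 CPM in MHCII-high mTEC and 3 reads in cTEC, a ratio of 194 with a counting interval of 66.0 to 943.

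Keratin and claudin genes were examined next, against shares of 12.9% higher and 1.82% lower among all tested genes. Of 17 keratin genes, 7 were higher and 0 lower (median 2.53). Krt14, a basal keratin of medullary epithelium, averaged 326 ± 119.7 CPM in MHCII-high mTEC and 39.3 ± 56.4 CPM in cTEC (SD, n = 7 each, log2 difference 3.05 ± 0.87, edgeR adjusted p = 0.0218), but missed the threshold in the 14 libraries alone (0.0780) and without cTEC replicates 5 and 6 (0.0674). Krt8, a keratin of simple epithelia and of cortex, averaged 1734 ± 735 CPM in MHCII-high mTEC and 854 ± 634 CPM in cTEC (SD, n = 7 each) and did not pass (edgeR adjusted p = 0.131). Of 13 claudin and adhesion genes, 5 were higher and 0 lower (median 2.38), with Epcam, a gene of the sort, among the 5. Of the 13, 10 had a positive difference, and Cldn1 averaged 44.4 CPM in MHCII-high mTEC and 95.2 CPM in cTEC (edgeR adjusted p = 0.568). Cldn3 and Cldn4, known from AIRE-expressing mTEC and their precursors, were both near 0 in cTEC. Cldn3 had 114 to 715 CPM in MHCII-high mTEC and 0 to 12.2 CPM in cTEC (log2 difference 5.98 ± 1.07, edgeR adjusted p = 8.19e-04). Cldn4 had 35.9 to 163 CPM in MHCII-high mTEC and 0 to 8.33 CPM in cTEC (log2 difference 5.11, edgeR adjusted p = 0.00540). Cldn7 had 243, 325 and 406 CPM in MHCII-high mTEC and 0, 13.7 and 36.4 CPM in cTEC (4.34 ± 0.80, edgeR adjusted p = 0.00113). All 3 separated the groups in every library and passed in the 14 libraries alone. Of 13 immature mTEC genes, 6 were higher and 0 lower (median 1.03), of which Cldn3, Cldn4 and Krt14 belong to other lists as well.

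Cortical genes were lower, but only a minority of the list passed. Of 18 genes of cortical identity, 5 were lower and 1 higher (median −1.83), against 1.82% and 12.9% of all tested genes. Psmb11, whose product forms the thymoproteasome, had 0, 3.04 and 33.3 CPM in MHCII-high mTEC and 6.51, 608 and 1003 CPM in cTEC (log2 difference −6.40 ± 1.28, edgeR adjusted p = 0.00222). Prss16, the thymus-specific serine protease, had 0, 21.8 and 87.2 CPM in MHCII-high mTEC and 3.90, 1011 and 1946 CPM in cTEC (−4.84 ± 1.10, edgeR adjusted p = 0.00641). For both the groups overlapped only through the library labelled cTEC replicate 5. Ly75, an endocytic receptor of cTEC and dendritic cells, averaged 62.1 CPM in MHCII-high mTEC and 229.8 CPM in cTEC (edgeR adjusted p = 0.0422), but missed the threshold when any of 10 of the 14 libraries was left out, up to 0.0730, and without cTEC replicates 5 and 6 (0.0794). Ccl25, the chemokine for thymus-seeding precursors, had 56.4, 217 and 611 CPM in MHCII-high mTEC and 33.6, 1811 and 2634 CPM in cTEC, just short of the threshold (−2.41 ± 0.87, edgeR adjusted p = 0.0540) and past it without cTEC replicate 5 (0.0418) or MHCII-high mTEC replicate 7 (0.0475). Dll4 averaged 10.3 CPM in MHCII-high mTEC and 39.7 CPM in cTEC (edgeR adjusted p = 0.351). Foxn1 averaged 115 CPM in MHCII-high mTEC and 58.9 CPM in cTEC (edgeR adjusted p = 0.661).

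Protein breakdown and antigen presentation showed few other differences. The shares of all tested genes were 12.9% higher and 1.82% lower. Ctsl was the single lower gene of 12 cathepsin and related genes (0 higher, median −0.89). Ctss, cathepsin S, which serves MHCII loading in mTEC and dendritic cells, averaged 638 ± 477 CPM in MHCII-high mTEC and 1216 ± 826 CPM in cTEC (SD, n = 7 each) and did not pass (edgeR adjusted p = 0.363). Of 18 proteasome and class I loading genes, 2 were lower and 1 higher (median −0.42). Psmb9, an immunoproteasome subunit, had 284, 388 and 692 CPM in MHCII-high mTEC and 415, 1092 and 1271 CPM in cTEC (log2 difference −1.03 ± 0.29, edgeR adjusted p = 0.0219, or 0.0724 without cTEC replicates 5 and 6), while the constitutive subunit gene Psmb5 averaged 127 CPM in MHCII-high mTEC and 103 CPM in cTEC. Calr, an endoplasmic chaperone, was the higher one, at 495 to 1167 CPM in MHCII-high mTEC and 254 to 496 CPM in cTEC (1.03 ± 0.23, edgeR adjusted p = 0.00483). Of 10 genes of the MHCII pathway, a sort marker, 2 were higher and 0 lower (median 0.52). Their summed levels overlapped, at 22129.5 to 41358 CPM in MHCII-high mTEC and 9828 to 42513 CPM in cTEC. H2-DMb2 and H2-Oa, which regulate peptide loading, were the 2. H2-DMb2 averaged 1154 CPM in MHCII-high mTEC and 383 CPM in cTEC, and H2-Oa 295 CPM in MHCII-high mTEC and 106 CPM in cTEC. The edgeR adjusted p of H2-DMb2 was 0.0169, or 0.0611 in the 14 libraries alone. That of H2-Oa was 0.0303, or 0.0585 without cTEC replicate 3 and 0.0528 without cTEC replicate 4. Of 15 costimulatory and checkpoint ligands, 0 were higher and 1 lower (median 0.30). Cd80, a marker of mature mTEC, had 4.55, 47.2 and 114 CPM in MHCII-high mTEC and 0, 17.7 and 90.3 CPM in cTEC and did not pass (edgeR adjusted p = 0.590). Cd274, which encodes PD-L1, was the lower one at averages of 183 CPM in MHCII-high mTEC and 362 CPM in cTEC (edgeR adjusted p = 0.0345), but not without cTEC replicate 1 (0.124). It also missed the threshold when any of 5 other libraries was left out, and without cTEC replicates 5 and 6 (0.0658).

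**Figure D4:**
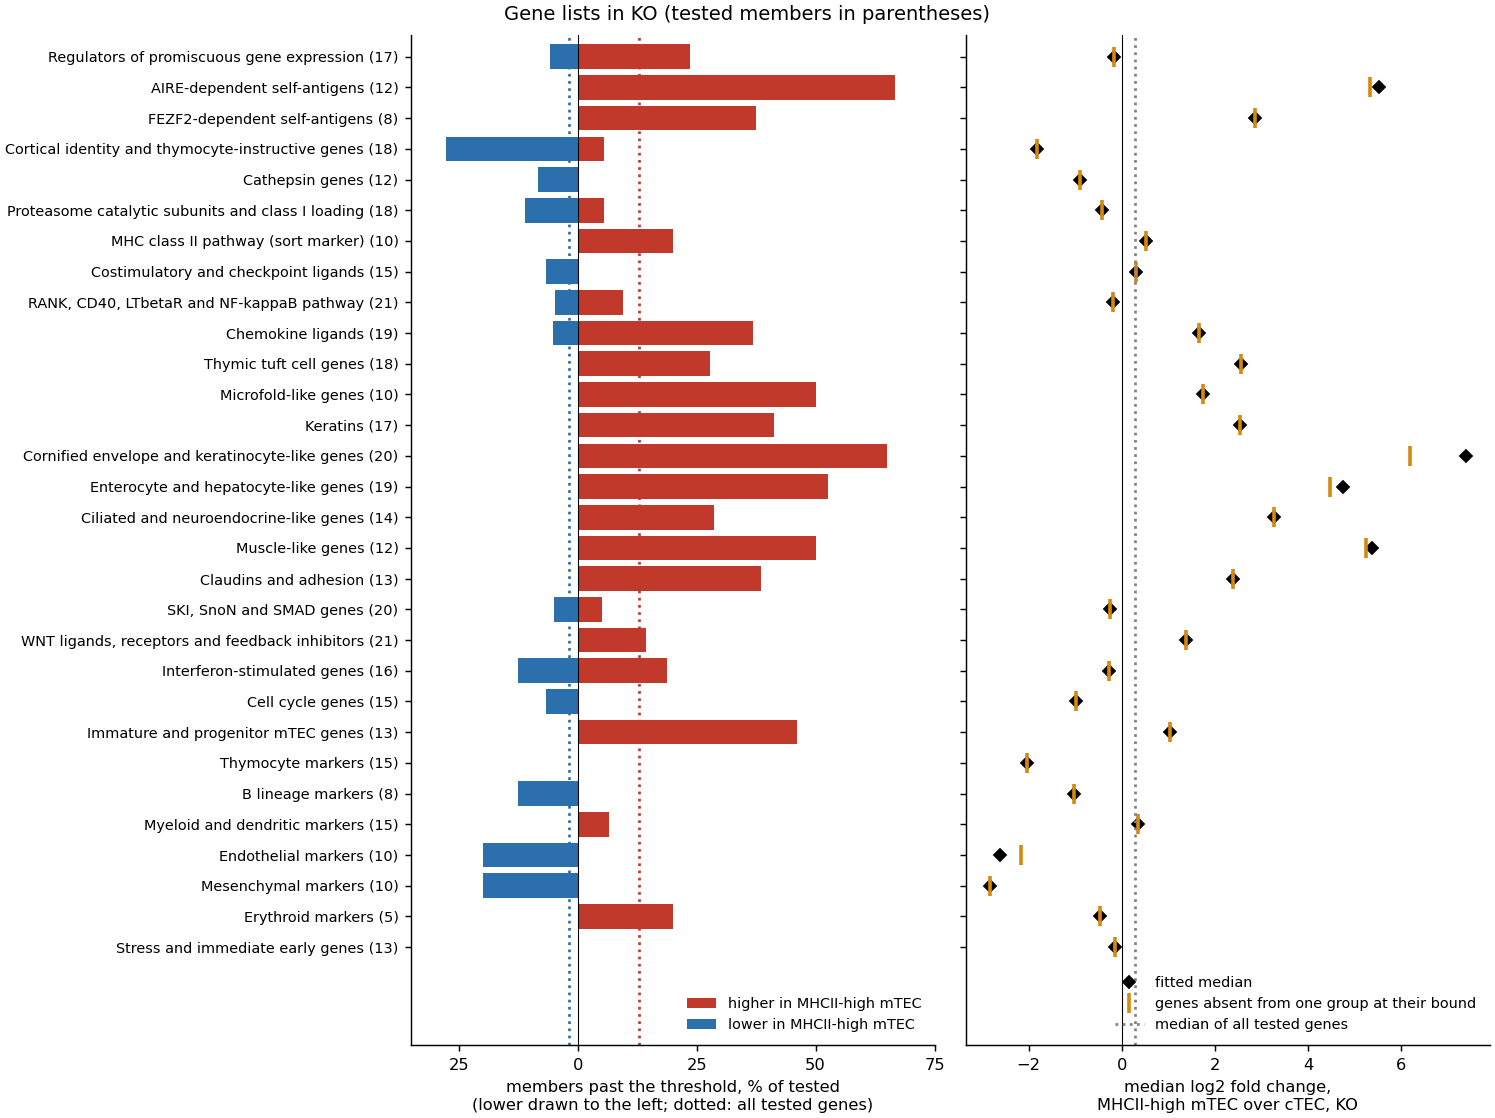
The 30 gene lists, with the number of tested members in parentheses. Left, the share of tested members past the threshold, in percent, with higher in MHCII-high mTEC drawn to the right (red) and lower to the left (blue), and dotted lines at the shares of all tested genes (12.9% and 1.82%). Right, the median log2 fold change of each list (diamonds), the same with genes absent from one group at their bound (ticks), and the median of all tested genes (0.28, dotted).

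The signalling lists are read against 12.9% of all tested genes higher and 1.82% lower. Of 21 genes of the RANK, CD40 and NF-kappaB pathway, 2 were higher and 1 lower (median −0.18). Tnfrsf11b, which encodes the RANK ligand decoy osteoprotegerin, had 231, 264 and 314 CPM in MHCII-high mTEC and 0, 0 and 90.3 CPM in cTEC (log2 difference 4.02 ± 1.34, edgeR adjusted p = 0.0409). The groups did not overlap, yet it missed the threshold when any of 7 of the 14 libraries was left out, up to 0.0653, and without cTEC replicates 5 and 6 (0.0906). Nfkbia, the feedback inhibitor of NF-kappaB, had 2239, 2515 and 3030.2 CPM in MHCII-high mTEC and 689, 1554 and 2225 CPM in cTEC (0.82 ± 0.23, edgeR adjusted p = 0.0216). The receptor RANK itself, Tnfrsf11a, averaged 198 ± 58.2 CPM in MHCII-high mTEC and 78.3 ± 65.8 CPM in cTEC (SD, n = 7 each) and did not pass (edgeR adjusted p = 0.103). Of 20 SKI, SnoN, SMAD and TGF-beta genes, 1 was higher and 1 lower (median −0.25). Tgfbr2, the type II receptor of TGF-beta, which leukocytes and stromal cells also express, had 0, 0.518 and 6.22 CPM in MHCII-high mTEC and 6.51, 30.2 and 101 CPM in cTEC (−4.21 ± 0.98, edgeR adjusted p = 0.00736). It did not overlap between the groups, and the adjusted p was 0.0624 in the 14 libraries alone. The relative of Ski, Skil, averaged 59.6 CPM in MHCII-high mTEC and 72.4 CPM in cTEC. Smad4, the common SMAD, averaged 132 CPM in MHCII-high mTEC and 117 CPM in cTEC. Of 21 WNT genes, 3 were higher and 0 lower (median 1.38). Nkd2, a feedback inhibitor of WNT signalling, had 17.8 to 108 CPM in MHCII-high mTEC and a single read in cTEC, a ratio of 1625 (95% interval from counting 291 to 64223).

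Of 19 chemokine genes, 7 were higher and 1, Cxcl12, lower (median 1.67). This and the lists that follow are read against 12.9% of all tested genes higher and 1.82% lower. Of the 19 chemokine genes, 11 had a positive difference. Their summed level went the other way, with a median of 5143 CPM in MHCII-high mTEC and 8696 CPM in cTEC. Ccl22 averaged 1335 CPM in MHCII-high mTEC and 2834 CPM in cTEC (edgeR adjusted p = 0.550). Ccl5 averaged 724 CPM in MHCII-high mTEC and 2274 CPM in cTEC (edgeR adjusted p = 0.183). Ccl20, the ligand of CCR6, had 54.2, 277 and 773 CPM in MHCII-high mTEC and 0, 0.871 and 107 CPM in cTEC (log2 difference 4.32 ± 1.21, edgeR adjusted p = 0.0204). Cxcl10, an interferon-induced chemokine, had 198, 688 and 2306 CPM in MHCII-high mTEC and 10.3, 62.2 and 552 CPM in cTEC (2.79 ± 0.78, edgeR adjusted p = 0.0202). Ccl27a, a chemokine of skin, had 39.0 to 322 CPM in MHCII-high mTEC and 0 to 11.8 CPM in cTEC (4.79 ± 0.89, edgeR adjusted p = 0.00113). The mTEC chemokine gene Ccl19 averaged 36.2 CPM in MHCII-high mTEC and 3.76 CPM in cTEC (edgeR adjusted p = 0.0208), and missed the threshold without MHCII-high mTEC replicate 1 (0.0531). Without cTEC replicates 5 and 6 the adjusted p was 0.0580 for Ccl20, 0.0618 for Cxcl10 and 0.0705 for Ccl19, and in the 14 libraries alone it was 0.116 for Ccl20, 0.0809 for Cxcl10 and 0.125 for Ccl19. Of 16 interferon-stimulated genes, 3 were higher and 2 lower (median −0.28). Oasl2 was higher at averages of 529 CPM in MHCII-high mTEC and 237 CPM in cTEC (edgeR adjusted p = 0.0125, or 0.0594 without cTEC replicates 5 and 6). Gbp2, a guanylate-binding protein, was lower (edgeR adjusted p = 0.0439) and missed the threshold when any of 11 of the 14 libraries was left out, up to 0.0769, and without cTEC replicates 5 and 6 (0.0965). Of 15 cell cycle genes, Pcna alone was lower and 0 were higher (median −0.99, edgeR adjusted p of Pcna 0.0348, up to 0.0870 with 1 library left out and 0.0690 without cTEC replicates 5 and 6). Of 13 stress and immediate early genes, 0 passed (median −0.15).

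Of the 10 lower genes with the smallest p, Cxcl12, Ctsl and Psmb11 are cortical genes, and the other 7 were named by the rule without a list. Smim14, a small membrane protein gene, had 68.2, 127 and 189 CPM in MHCII-high mTEC and 234, 319 and 400.1 CPM in cTEC (log2 difference −1.24 ± 0.21, edgeR adjusted p = 6.18e-04). Isg20, an interferon-induced exonuclease, had 36.6, 94.4 and 148 CPM in MHCII-high mTEC and 171, 387 and 605 CPM in cTEC (−2.14 ± 0.39, edgeR adjusted p = 0.00103). Cux1, a homeobox factor, had 6.24 to 75.2 CPM in MHCII-high mTEC and 106 to 329.9 CPM in cTEC (−2.05 ± 0.41, edgeR adjusted p = 0.00215). None of these 3 overlapped between the groups. Pithd1 was at 15.2 to 139 CPM in MHCII-high mTEC and 78.9 to 742 CPM in cTEC (−2.55 ± 0.49, edgeR adjusted p = 0.00165). Lgals9, galectin-9, was at 91.2 to 273 CPM in MHCII-high mTEC and 253 to 887 CPM in cTEC (−1.42 ± 0.30, edgeR adjusted p = 0.00384). Ctdspl2 and Hp1bp3 completed the 10, all of which passed in the 14 libraries alone and without cTEC replicates 5 and 6. They too were picked by p from these same libraries. Of these 10, 6 passed among early libraries and 3 among late ones.

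The 10 lower genes with the largest fold held several that are known from leukocytes, mast cells or vessels, beside Psmb11 and Cxcl12. Ptpn7, a phosphatase of leukocytes, had 0, 0.589 and 8.55 CPM in MHCII-high mTEC and 10.6, 70.3 and 289 CPM in cTEC (log2 difference −5.94 ± 1.32, edgeR adjusted p = 0.00545). Cav1, caveolin, abundant in endothelium and stroma, was at 0 in MHCII-high mTEC and at 0 to 228 CPM in cTEC, at least 1122-fold lower in MHCII-high mTEC. Ctla2a was at 0 in all MHCII-high mTEC libraries and at 0.278 to 48.3 CPM in cTEC, at least 201-fold lower in MHCII-high mTEC. Cpa3, a mast cell protease, had 0 to 1.32 CPM in MHCII-high mTEC and 0 to 232 CPM in cTEC, and missed the threshold without cTEC replicate 1 (edgeR adjusted p = 0.0640). Kctd12b, Mtcl1, Plod1 and Tifab completed the 10, and 3 of the 10 were tested and passed in the 14 libraries alone. Among the markers of other cells, 1 of 8 B-lineage genes, 2 of 10 endothelial genes and 2 of 10 mesenchymal genes were lower, with medians of −1.03, −2.62 (−2.16 at bounds) and −2.83. Among all tested genes, 1.82% were lower and 12.9% higher. Ighm, the IgM heavy chain, was at 0 to 199.9 CPM in MHCII-high mTEC and 105 to 14991 CPM in cTEC, and its edgeR adjusted p of 0.0290 became 0.254 without cTEC replicate 6 and 0.316 without replicates 5 and 6. Col3a1, a fibroblast collagen, reached 3.11 CPM in MHCII-high mTEC and 858 CPM in cTEC. The top value was that of cTEC replicate 1, without which the adjusted p of 0.0314 became 0.202. In the other direction, 1 of 15 myeloid genes was higher: Lyz2, lysozyme of myeloid cells and some epithelia, had 926 to 2525 CPM in MHCII-high mTEC and 22.6 to 470.0 CPM in cTEC (2.72 ± 0.65, edgeR adjusted p = 0.00873). Of 5 erythroid genes 1 was higher and 0 lower (median −0.47).

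The same contrast in mice labelled Control, with 4 MHCII-high mTEC and 5 cTEC libraries, gave 246 higher (1.07%) and 10 lower genes (0.0434%), 1.11% of those tested. That count depends on the test, with 1515 higher and 198 lower in DESeq2, 1848 and 106 in limma-voom, 459 and 77 with detected genes as a covariate, and 560 and 52 with early or late as a term. In KO the counts were 2806 and 640 in DESeq2, 2756 and 476 in limma-voom, and 2160 and 1049 with the covariate, and 2863 genes were higher with early or late as a term. Of those 256 genes, 218 (85.2%) were called in the same direction in KO, which is 6.44% of the KO calls in the same edgeR fit, and 90.1% of the KO calls had the same sign in Control. Cib1, Cystm1, Fezf2, Cxcl12 and Ctsl were among the genes past the threshold in both. In Control the log2 difference was 2.26 for Cib1, 3.31 for Cystm1, 5.74 for Fezf2, −5.70 for Cxcl12 and −3.44 for Ctsl. Aire (3.80, edgeR adjusted p = 0.120), Psmb11 (−5.08, 0.0853) and Prss16 (−4.26, 0.102) did not pass in Control, where fewer libraries entered. The difference of the contrast between KO and Control was tested itself, as an interaction: 0 of 23040 genes passed in edgeR, 1673 (7.26%) had an unadjusted p under 0.05, and limma-voom called 7 and DESeq2 364. Cdhr5, Igfals, Nkd2, Scnn1g and Serpinb2 had the smallest p for a larger contrast in KO, and Ankrd1, Ceacam10, Cxcl3, Spink1 and Tmem117 for a smaller one, all with an adjusted p of 0.455. Igfals, a carrier protein of insulin-like growth factors made by liver, averaged 82.4 CPM in MHCII-high mTEC and 0 CPM in cTEC of KO, against 31.9 and 2.22 CPM in Control. Ceacam10 averaged 64.1 CPM in MHCII-high mTEC and 3.77 CPM in cTEC of KO, against 90.9 and 0 CPM in Control. In both genes one genotype had no read in cTEC, where the fitted contrast depends on the prior count.

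**Figure D5:**
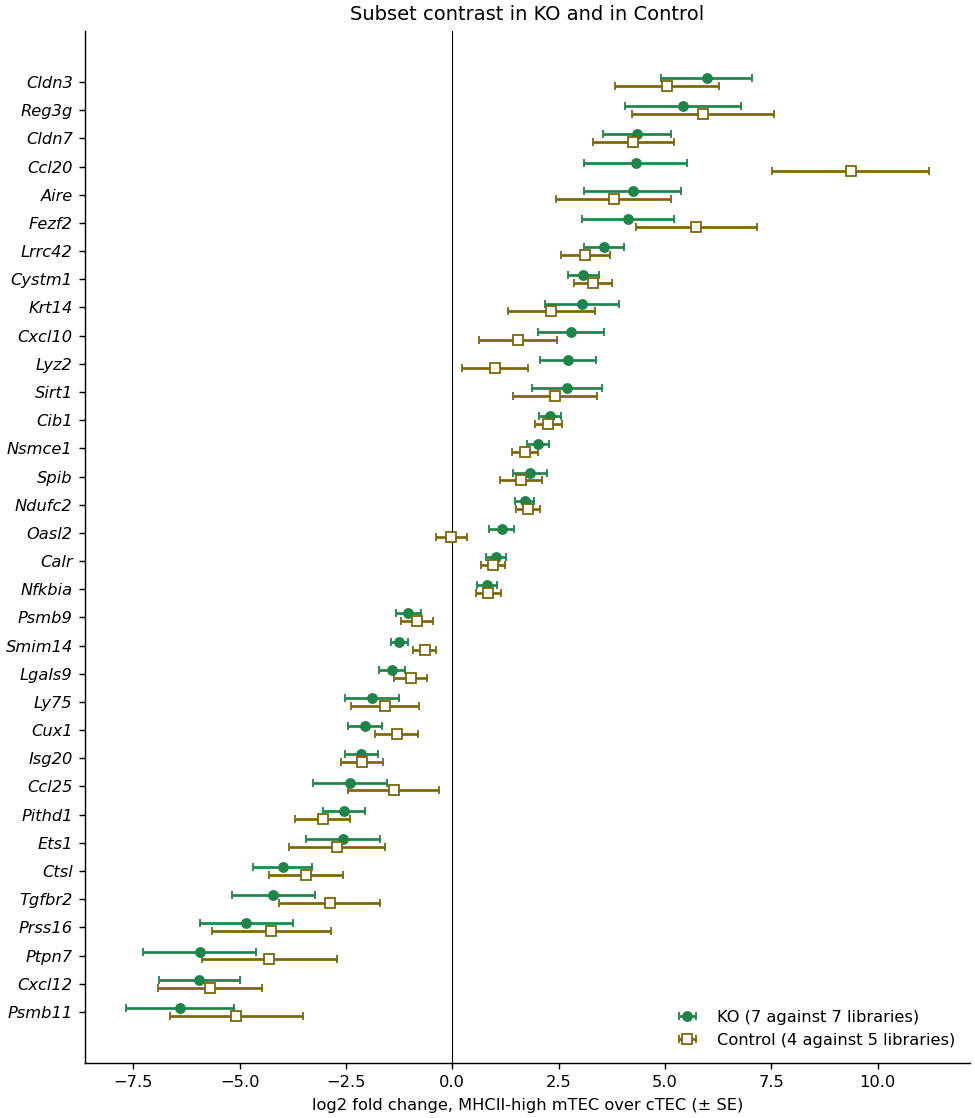
Log2 fold change of MHCII-high mTEC over cTEC (horizontal axis, ± SE from edgeR) for genes of the text, in KO (filled circles) and in Control (open squares), ordered by the value in KO. Cib1 lies at 2.30 in KO and 2.26 in Control, and Cxcl12 at −5.95 and −5.70, while Oasl2 lies at 1.16 and −0.02, a difference with an unadjusted p of 0.0173.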

How the data were processed

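RNA was measured by full-length cDNA amplification (SMART-Seq v4) and Nextera XT libraries, per the labels' protocols. The authors deposited whole-number read counts per gene, not normalized. The submitters' processing notes name HTSeq 0.4.1, Picard 1.134, FastQC 0.11.3, SAMtools 1.2 and GRCm38. Aligner, annotation release and strand setting were not given in the sources used here. Of 53465 gene IDs, 53274 matched a symbol and position in the GENCODE annotation.

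Control libraries of 82 and 41828 counts were left out, so 40 of 42 libraries (3217251 to 7068077 counts) entered 1 edgeR 4.0.16 fit (R 4.3.3) with a term per cell type and genotype, TMM scaling, filterByExpr, the quasi-likelihood test and Benjamini-Hochberg adjustment over all 23040 genes. All groups share 1 estimate of the spread. Named genes are 12 fixed ones (Ski, the markers and cortical or mature mTEC genes) and, per direction, the 10 with the smallest p and the 10 with the largest fold among called genes with a median of at least 10 CPM, up to 4 called members per list, 5 per direction of the interaction, and genes added for the text after their values were seen. The members and lists were chosen with earlier results of these data known. Folds of genes absent from a group are bounds against 3 counts over that group, and intervals and bounds cover counting error only, since reads without molecular identifiers are not independent molecules. The script was tested on simulated data. DESeq2 1.42.0, limma 3.58.1, other scalings and filters, the trio as a block and left-out libraries were alternatives. The fits without cTEC replicates 5 and 6 together, of the 21 KO libraries, and of the 14 libraries at the genes of the larger fit were chosen after seeing the data. Single values used exact permutation tests (SciPy 1.17.1). Some list members are counted but not reported here by name.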

Additional observations from a re-analysis of the deposited data

Results flagged for a closer look

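Within a KO group, a library was singled out where the highest or lowest value lay far from the nearest other library relative to the range of the group (Dixon's test). This happened in 30 of 260 tests, run on log2(CPM + 1) for genes and list sums. A chance rate of about 1 in 20 holds only for normally distributed values. A gene with reads in only 1 library is always singled out, so the rates cannot be compared.

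The library labelled cTEC replicate 5 stood below the other cTEC libraries for Psmb11 (6.51 CPM), Prss16 (3.90 CPM) and Ccl25 (33.6 CPM). It stood above them for Dsg1a (0.260 CPM), Gucy1b2 (0.520 CPM), Pou2f3 (6.25 CPM) and Myog (0.781 CPM). cTEC replicate 1 stood below the others for the summed myeloid and dendritic markers (254 CPM), Ctss (75.8 CPM), Ccr7 (195 CPM), Skil (0.871 CPM) and Smad4 (13.1 CPM). It stood above them for Sprr1a (42.5 CPM), Olfm4 (0.435 CPM) and Nkd2 (0.218 CPM). In cTEC replicate 3, Sirt1 was at 0 CPM, Ankrd1, a muscle ankyrin repeat gene, at 1385 CPM and Actc1 at 1196 CPM. In cTEC replicate 2, Cldn1 was at 0 CPM.

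Among MHCII-high mTEC, replicate 1 stood above the others for the summed WNT genes (406 CPM) and below them for Cd80 (4.55 CPM) and Gbp2 (0 CPM). Replicate 2 stood below the others for the summed endothelial markers (1.48 CPM), Skil (0 CPM) and Scnn1g (0 CPM). Replicate 3 had Ighm at 0 CPM. Ankrd1 was at 2.59 CPM in replicate 4, Cpa3 at 1.32 CPM in replicate 5, and Ptpn7 and Col3a1 at 8.55 CPM and 3.11 CPM in replicate 7.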

How the results depend on the processing

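The direction of the 88 named genes past the threshold held under every alternative run, and 349 of their 2679 values lost the call. The losses were uneven. Among early libraries alone 60 of the 88 lost the call, and among late ones alone 54 did. In the 14 libraries alone 48 kept it and 19 lost it, and the rest were not tested there. Of the 88 genes, 74 kept the call whichever single library was left out. The 2965 higher and 420 lower genes became 1502 and 285 with the trio as a replicate block, and 482 and 88 with that block in the 14 libraries alone. Libraries of the same trio correlated at 0.0267 to 0.235 in their deviations over 6901 genes, with the own trio best for 5 of 7. No label states that a trio shares a mouse, so a pairing is possible but not established. Counts were 390 and 52 in the 14 libraries alone (961 and 63 at the genes of the larger fit), 941 and 103 in the 21 KO libraries, 163 and 43 early, 491 and 66 late, 1457 and 275 at 10 CPM in 5 libraries, and 1199 and 196 without cTEC replicates 5 and 6. The lower count was 247 without a count filter, 640 in DESeq2, 132 against a 2-fold difference and 1049 with detected genes as a covariate. Leaving out 1 library gave 1719 to 2841 higher and 241 to 403 lower. The interaction count of 0 stayed at 0 to 0 there, and was 364 in DESeq2 and 7 in limma-voom. The difference in detected genes passed when thinned (3130, exact permutation p = 0.0425), at 5 counts or more (2660, p = 0.0449 by the exact test) and with the replicate block (3192, exact permutation p = 0.0156), and ran from 2566 to 3983 with 1 library left out (exact permutation p = 0.0198 to 0.106). The Ski difference ran from −1.59 to −0.68 in log2(CPM + 1). Genes short of the threshold that changed sign were Enpep (2.43 with the covariate, 0.11 without cTEC replicate 1, 0.80 without cTEC 2, 0.00 without MHCII-high mTEC 6, −2.40 to 0.80 with 1 library left out), Skil (0.06 without cTEC 5, 0.12 without cTEC 5 and 6, −0.48 to 0.06 with 1 left out), Smad4 (−0.09 without MHCII-high mTEC 1, −0.09 to 0.34 with 1 left out), Ankrd1 (2.51 in DESeq2, 0.15 with the covariate, 9.44 late, 3.96 in limma-voom, 4.41 with the block, 4.79 with the block in 14 libraries, 2.39 without cTEC 3, −3.76 to 2.39 with 1 left out) and Actc1 (10.58 late, 2.26 in limma-voom, 7.20 with the block, 11.13 without cTEC 3, −2.89 to 11.13 with 1 left out). The cause was not tested. Each library held 200 sorted cells, and whether genes expressed by few cells were missed in single libraries was not tested.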
